A study of Homo sapiens with 9 samples.

Results

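The WNT ligands, their Frizzled receptors, the secreted antagonists and the genes around them were described in RNA sequencing data of human neuroblastoma cells. Members were all protein-coding genes of the deposited table whose symbol was that of a WNT, FZD, SFRP1 to SFRP5 or DKK1 to DKK4 gene, or of LRP5, LRP6, ROR1, ROR2, RYK, AXIN1, AXIN2, LGR4 to LGR6, RNF43, ZNRF3, LEF1, TCF7, TCF7L1, TCF7L2, CTNNB1 or APC. Of the 22290 genes of the table, 46 were members. The annotation held 55 protein-coding genes with such a symbol, and the other 9 (WNT1, WNT2, WNT3A, WNT7A, WNT8A, WNT9B, FZD10, DKK4 and RNF43) were not analysed here.

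The study compared cells of the established line IMR-32 in which the mitochondrial chaperone TRAP1 (TRAP-1) was to be lowered or raised. There were 9 libraries in 3 groups: 3 of parental cells (PAR, genotype WT), 3 of TRAP-1 knockdown cells (KD) and 3 of TRAP-1 overexpression cells (OE). The engineered cells had been made for earlier work, and whether each is a clone or a pool is not given in the sources used here. RNA was isolated in triplicate and nothing says that the triplicates were separate cultures, so that p-values measure only the spread between these libraries. In such bulk samples, fewer cells of a type and less RNA per cell cannot be told apart.

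The values are regularized log2 values (rlog), which the authors' software scales for library size and shrinks toward the mean of each gene, more strongly at low levels. A difference of rlog values is therefore on the log2 scale and, as a rule, smaller than that of unshrunken values. Sequencing depth cannot be read from them. TRAP1 (ENSG00000126602, chr16:3651639-3717553), the targeted gene, had rlog values of 10.67, 10.66 and 10.65 in the parental libraries, 10.79, 10.79 and 10.83 in those labelled KD and 10.67, 10.63 and 10.74 in those labelled OE. In an unstranded kit reads of DNASE1, which overlaps 28.5% of its exon length, cannot be told apart from its own. All 3 libraries labelled KD lay above the parental ones, by 0.14 on average (adjusted p = 1.8e-05 from limma), and those labelled OE overlapped the parental range, with a difference of 0.018 that was not called (adjusted p = 0.643 from limma). With the median difference of neighbouring genes within 10 Mb subtracted, the OE difference was 0.077 and was called (adjusted p = 0.0149 from limma). With it, 5021 genes were called higher and 3817 lower for OE, beside 3762 and 4002 without. Against the libraries labelled KD, those labelled OE differed by -0.12 without overlap (adjusted p = 1.5e-04 from limma). After the subtraction this difference was -0.066 (adjusted p = 0.0262 from limma). TRAP1 RNA thus went against the label KD, and it was lower under the label OE than under the label KD. The groups are called libraries labelled KD and libraries labelled OE throughout.

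Marker genes were read to check the labelled cell line, which the authors report as authenticated. MYCN, which is amplified in IMR-32 cells, had a mean rlog value of 2.54 over the 9 libraries, and only 18.9% of all genes had a lower one. Of the 12 listed markers of adrenergic neuroblastoma, 9 had values. PHOX2A and TH had mean rlog values of 1.34 and 2.73, whereas GATA3 reached 7.27 and ISL1, the most abundant of the list, 9.29. All 8 markers of mesenchymal neuroblastoma or neural crest had values, from 8.68 for SNAI2 to 15.89 for VIM. The data therefore went against the labelled line in 5 of 9 adrenergic markers, MYCN among them, with a mean rlog under 5, and no other name is given to the cells.

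Some marker sums moved with the groups. Taken back from the log2 scale, the mesenchymal markers summed to 121760, 121826 and 121857 in the parental libraries, to 135400, 135806 and 134517 in those labelled KD and to 135723, 135195 and 136486 in those labelled OE. In both engineered groups all 3 sums lay above the parental ones, with VIM as the most abundant gene, and 5 of the 8 genes were called higher and 2 lower in each at an adjusted p under 0.05 from limma, against 71.7% of all genes called for KD and 50.3% for OE at a mean rlog of at least 5. FN1 went opposite ways, with a difference of -0.96 for KD and 0.55 for OE. The adrenergic markers summed to 1003, 974 and 993 in the parental, 928, 906 and 908 in the KD-labelled and 935, 983 and 952 in the OE-labelled libraries, and 6 of 9 were called for KD (2 higher, 4 lower) and 2 of 9, both lower, for OE, against 53.7% and 34.8% of all genes. Whether these shifts had a part in the results on WNT genes was not tested.

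WNT proteins are secreted, lipid-modified ligands that bind Frizzled receptors. With LRP5 or LRP6 as co-receptor, binding halts the destruction complex of APC, AXIN and kinases, so that beta-catenin (CTNNB1) accumulates and acts with TCF/LEF factors on target genes such as AXIN2. Other ligands, WNT5A among them, act through ROR1, ROR2 or RYK without beta-catenin, SFRP proteins bind the ligands, and DKK1 blocks LRP5 and LRP6. In the neural crest, from which neuroblastoma arises, WNT signals take part in the induction and fate of the cells.

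Differences between group means were tested with limma on all 22290 genes, and a gene was called at a Benjamini-Hochberg adjusted p under 0.05. For KD against parental 32 of 46 members were called, against 53.7% of all genes, 12 of them higher and 20 lower, where 26.9% of all genes were called in each direction. Among the 32 members with a mean rlog of at least 5 there were 27 calls, against 71.7% of all genes at that level. In 34 of 46 members the KD-labelled and parental ranges did not overlap, against 59.2% of all genes. Most genes of the table differed at this level of spread, so that the sizes and directions of single members say more than their number.

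Against parental, 16 of 46 members were called in the libraries labelled OE, where 34.8% of all genes were called. Of these 7 were higher and 9 lower, against 16.9% and 18.0% of all genes. At a mean rlog of at least 5 the count was 15 of 32, against 50.3% of all genes, and in 23 of 46 members the OE-labelled and parental libraries did not overlap, against 43.2% of all genes. The share called among members was close to that of all genes. The median absolute rlog difference of the 46 members was 0.135 in the libraries labelled KD and 0.0569 in those labelled OE, beside 0.0806 and 0.0479 over all genes. Both comparisons share the parental libraries.

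**Figure D1:**
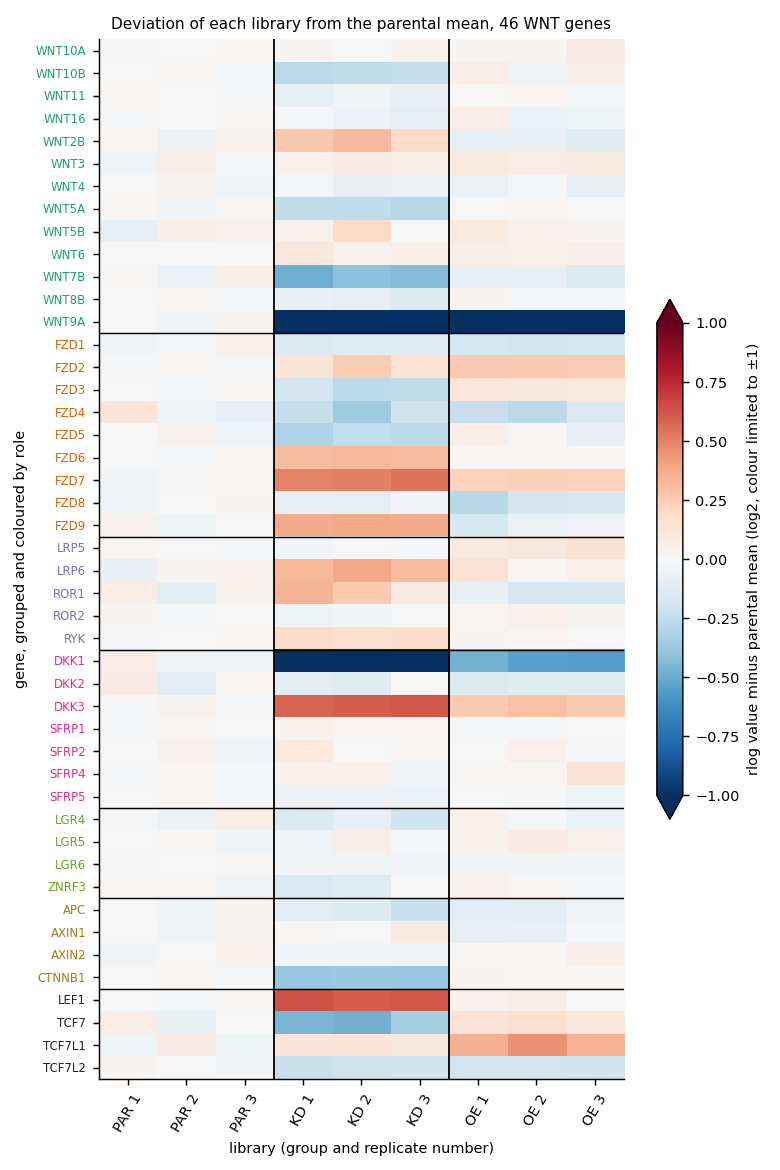
Deviation of each of the 9 libraries (columns) from the parental mean for 46 WNT genes (rows, grouped and coloured by role), in rlog units (log2), with the colour scale limited to ±1. DKK1 and WNT9A are far below the parental mean in all 3 libraries labelled KD, and LEF1, DKK3 and FZD7 are above it.

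The 3 members with the largest differences, before any subtraction of neighbours, were DKK1, WNT9A and LEF1. Their promoters are shown together with one of TCF7, a gene called in opposite directions. The windows are those of RefSeq on GRCh38.p14, 250 bases before to 50 after a transcription start, printed 5′ to 3′ on the strand of the gene. Capitals mark CTTTGNT, a core of the TCF/LEF motif, searched on both strands. The DKK1 window (chr10:52314031-52314330, plus strand) begins upstream of the gene and holds the motif once, 76 bases before the start. The WNT9A window (chr1:227947883-227948182, minus strand) holds none, and neither does that of LEF1 (chr4:108166252-108166551, minus strand), whose start lies inside the annotated gene. Both TCF7 windows lie inside the annotated gene, and the downstream one (chr5:134123368-134123667, plus strand) holds it once, on the opposite strand, 50 bases before the start.
DKK1: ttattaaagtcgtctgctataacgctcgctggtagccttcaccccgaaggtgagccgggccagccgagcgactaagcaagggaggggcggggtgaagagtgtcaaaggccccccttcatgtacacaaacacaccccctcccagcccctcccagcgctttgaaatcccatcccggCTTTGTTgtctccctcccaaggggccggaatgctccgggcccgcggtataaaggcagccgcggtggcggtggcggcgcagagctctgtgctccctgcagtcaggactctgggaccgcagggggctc
WNT9A: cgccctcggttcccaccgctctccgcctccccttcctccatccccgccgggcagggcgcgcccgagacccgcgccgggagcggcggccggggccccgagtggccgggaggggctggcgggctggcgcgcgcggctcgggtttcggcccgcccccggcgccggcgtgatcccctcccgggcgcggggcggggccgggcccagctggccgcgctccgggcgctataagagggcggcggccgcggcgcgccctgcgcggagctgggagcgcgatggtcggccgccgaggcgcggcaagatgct
LEF1: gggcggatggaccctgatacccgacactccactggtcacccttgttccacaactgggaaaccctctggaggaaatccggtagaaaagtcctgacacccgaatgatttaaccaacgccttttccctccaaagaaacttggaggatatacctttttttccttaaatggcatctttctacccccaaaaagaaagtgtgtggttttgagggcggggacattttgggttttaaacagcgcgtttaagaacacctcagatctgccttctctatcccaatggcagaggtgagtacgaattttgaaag
TCF7: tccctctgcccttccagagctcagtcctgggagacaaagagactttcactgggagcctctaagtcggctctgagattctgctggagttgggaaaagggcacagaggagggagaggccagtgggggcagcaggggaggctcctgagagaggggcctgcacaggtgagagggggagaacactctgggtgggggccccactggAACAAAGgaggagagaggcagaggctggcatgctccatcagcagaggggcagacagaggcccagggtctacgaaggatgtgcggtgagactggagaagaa

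Promoters were found for 32 of the 46 members, 41 windows in all. Of these, 5 windows (12.2%) held the motif, beside 15.4% of all 35116 promoters of the same length. The others were in LGR6, TCF7L2 and WNT3. A match describes the letters in the window and is not a measured binding site. The RefSeq promoter set held no window for AXIN2, DKK2, DKK3, FZD2, FZD3, FZD6, FZD7, LGR5, LRP6, SFRP1, WNT10B, WNT11, WNT7B and ZNRF3.

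To compare genes with each other, 2 to the power of the rlog value was averaged over the parental libraries and divided by the kilobases of exons, a per-length level with no test. SFRP1, which binds WNT ligands, had the highest per-length level of all members (4585), followed by CTNNB1 with 1487. Among the ligands WNT5A led with 483, ahead of WNT10B with 148 and WNT9A with 61.5. FZD6, FZD1 and FZD7 were the most abundant Frizzled genes (603, 504 and 479 per kilobase), and FZD4 was the lowest with 5.07. Of the co-receptors LRP5 stood at 568 and LRP6 at 28.3, and RYK (547) was far above ROR1 (29.3) and ROR2 (0.871). AXIN2, a widely used readout of beta-catenin activity, had a per-length level of only 0.826. Other genes overlap 25.3% of the exon length of AXIN2.

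**Figure D2:**
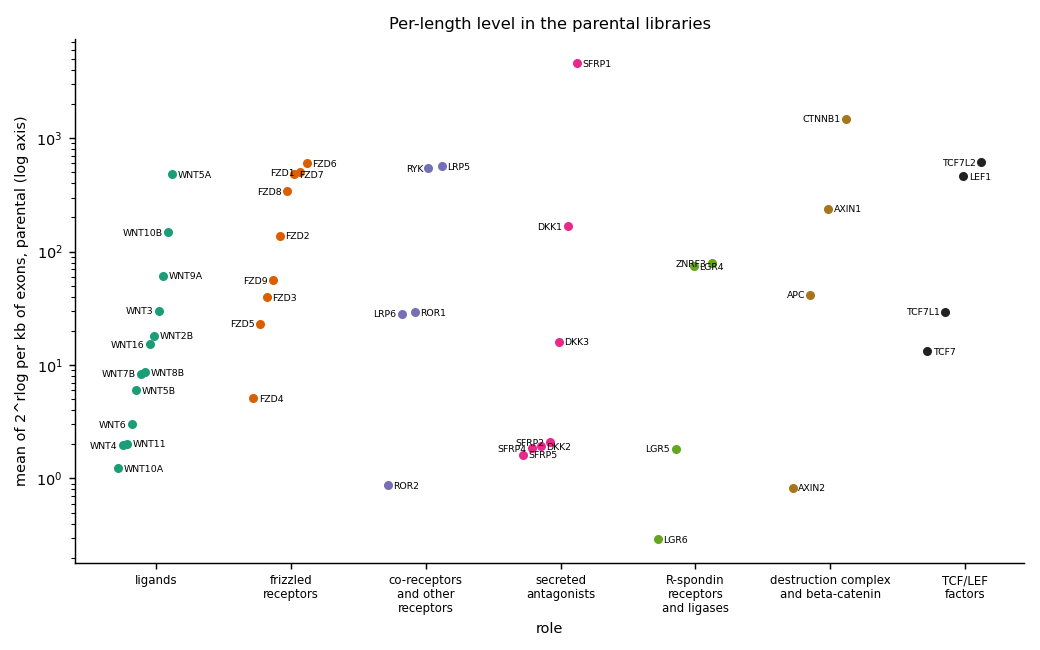
Per-length level of each of the 46 genes in the parental libraries (mean of 2 to the power of rlog per kilobase of exons, logarithmic axis), by role. SFRP1 and CTNNB1 are the highest, at 4585 and 1487, and LGR6 is the lowest.

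Of the 13 ligand genes, 8 were called for KD, 2 higher and 6 lower, against 53.7% of all genes, and only WNT9A was called, lower, for OE, against 34.8%. WNT9A (ENSG00000143816, chr1:227918656-227947932), a ligand known from joint development, had rlog values of 7.95, 7.92 and 7.97 in the parental libraries, 6.47, 6.48 and 6.40 in those labelled KD and 6.95, 6.87 and 6.84 in those labelled OE. The 3 groups did not overlap, with the libraries labelled KD lowest and those labelled OE between them and the parental ones. It fell by 1.50 in the libraries labelled KD (SE 0.044, adjusted p = 9.0e-24 from limma) and by 1.06 in those labelled OE (SE 0.044, adjusted p = 5.6e-19 from limma). On the rlog scale these are 0.354 and 0.480 of the parental level.

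WNT5A (ENSG00000114251, chr3:55465715-55490539), the ligand best known for signals without beta-catenin, had rlog values of 11.77, 11.73 and 11.76 in the parental libraries, 11.50, 11.50 and 11.47 in those labelled KD and 11.76, 11.78 and 11.75 in those labelled OE. The libraries labelled KD lay below all others, and those labelled OE overlapped the parental ones. Its difference was -0.27 in the libraries labelled KD (SE 0.019, adjusted p = 1.7e-13 from limma). Its 120 neighbours, which start within 10 Mb and have a mean rlog of 8 or more, had a median difference of -0.32 there. With that median subtracted, the difference of WNT5A was 0.050 (adjusted p = 0.027 from limma), so that its direction turned. Here and for other genes, p-values after this subtraction keep the SE of limma and treat the median as fixed.

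WNT10B, which acts through beta-catenin, had rlog values of 8.58, 8.60 and 8.57 in the parental libraries, 8.31, 8.33 and 8.34 in those labelled KD and 8.65, 8.55 and 8.64 in those labelled OE. WNT7B, a ligand of neural and lung development, had values of 5.43, 5.35 and 5.47 in the parental libraries, 4.93, 5.01 and 4.98 in those labelled KD and 5.34, 5.34 and 5.28 in those labelled OE. For both ligands the libraries labelled KD were below all parental ones, by 0.25 (adjusted p = 2.3e-07 from limma) and 0.44 (adjusted p = 9.4e-10 from limma). In the libraries labelled OE the difference of WNT7B from parental was -0.098 (adjusted p = 0.108 from limma), and -0.13 without PAR replicate 2, where it was called (adjusted p = 0.0458 from limma). WNT2B had rlog values of 7.83, 7.75 and 7.84 in the parental libraries, 8.08, 8.13 and 8.0 in those labelled KD and 7.73, 7.74 and 7.68 in those labelled OE. It was the ligand with the largest increase in the libraries labelled KD, 0.26 (adjusted p = 1.7e-06 from limma), and 21.5% of its exon length overlaps other genes, mainly ST7L, whose reads an unstranded kit cannot tell apart from its own. Its difference in the libraries labelled OE, -0.092 (adjusted p = 0.0828 from limma), was called without PAR replicate 2 (-0.12, adjusted p = 0.0387 from limma).

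The other 8 ligand genes had differences between -0.10 (WNT8B) and 0.076 (WNT6) in the libraries labelled KD. WNT6, WNT8B and WNT11 were called there, at mean rlog values under 5 where shrinkage is strong, and WNT3, WNT4, WNT5B, WNT10A and WNT16 were not called in either comparison with parental.

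Of the Frizzled genes all 9 were called for KD, 4 higher and 5 lower, and 6 for OE, 3 in each direction, against 71.7% and 50.3% of all genes at a mean rlog of at least 5, which all 9 reached. FZD7 (ENSG00000155760, chr2:202033855-202038441), a receptor for both branches of the pathway, had rlog values of 11.08, 11.11 and 11.12 in the parental libraries, 11.60, 11.61 and 11.65 in those labelled KD and 11.33, 11.34 and 11.33 in those labelled OE. The groups did not overlap, with the libraries labelled KD highest. FZD7 rose by 0.52 in these (SE 0.021, adjusted p = 3.3e-20 from limma) and by 0.23 in those labelled OE (SE 0.021, adjusted p = 7.3e-11 from limma). FZD2, a close relative of FZD7, had values of 9.02, 9.05 and 9.02 in the parental libraries, 9.16, 9.28 and 9.18 in those labelled KD and 9.29, 9.29 and 9.29 in those labelled OE. Both engineered groups were above the parental one, by 0.18 (adjusted p = 2.1e-05 from limma) for KD and 0.26 (adjusted p = 8.1e-08 from limma) for OE.

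FZD6, which is known from planar cell polarity, had rlog values of 11.25, 11.25 and 11.28 in the parental libraries, 11.58, 11.60 and 11.58 in those labelled KD and 11.27, 11.28 and 11.27 in those labelled OE. FZD9, deleted in Williams syndrome, had rlog values of 7.08, 6.98 and 7.04 in the parental libraries, 7.40, 7.42 and 7.41 in those labelled KD and 6.86, 6.97 and 7.0 in those labelled OE. Both were higher in all 3 libraries labelled KD than in any other library, by 0.32 for FZD6 (adjusted p = 1.6e-15 from limma) and 0.38 for FZD9 (adjusted p = 1.1e-08 from limma) against parental. Neither was called in the libraries labelled OE.

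FZD5 had rlog values of 7.35, 7.38 and 7.30 in the parental libraries, 7.04, 7.10 and 7.08 in those labelled KD and 7.40, 7.35 and 7.26 in those labelled OE. FZD4, the receptor for Norrin in retinal vessels, had values of 5.35, 5.18 and 5.14 in the parental libraries, 4.98, 4.87 and 5.02 in those labelled KD and 4.99, 4.96 and 5.09 in those labelled OE. In the libraries labelled KD both lay below all parental libraries, by 0.27 for FZD5 (adjusted p = 3.0e-06 from limma) and 0.27 for FZD4 (adjusted p = 7.9e-05 from limma). FZD4 overlaps other genes, mainly PRSS23, in 18.9% of its exon length. FZD4 also fell by 0.21 in the libraries labelled OE (adjusted p = 0.00228 from limma), whereas FZD5 differed there by -0.0037 with a 95% confidence interval of -0.093 to 0.086.

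FZD8 had rlog values of 10.41, 10.43 and 10.46 in the parental libraries, 10.35, 10.34 and 10.40 in those labelled KD and 10.15, 10.24 and 10.28 in those labelled OE. It fell by 0.21 in the libraries labelled OE (adjusted p = 3.3e-07 from limma), and its smaller difference in those labelled KD, -0.068 (adjusted p = 0.0452 from limma), was not called without a variance trend (0.112), nor without PAR replicate 2 (0.0803), PAR replicate 3 (0.175), KD replicate 1 (0.119), KD replicate 2 (0.171) or OE replicate 2 (0.0517). FZD3, an axon guidance receptor, had rlog values of 9.08, 9.08 and 9.10 in the parental libraries, 8.90, 8.83 and 8.83 in those labelled KD and 9.21, 9.20 and 9.19 in those labelled OE. It was lower than parental in all 3 libraries labelled KD, with a difference of -0.23 (adjusted p = 1.2e-07 from limma), and higher in all 3 labelled OE, with 0.12 (adjusted p = 0.00355 from limma). After subtraction of the neighbours' median the OE difference was 0.058 and was not called (adjusted p = 0.147 from limma). FZD1, the remaining Frizzled gene, was lower in both groups, by 0.13 and 0.18.

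**Figure D3:**
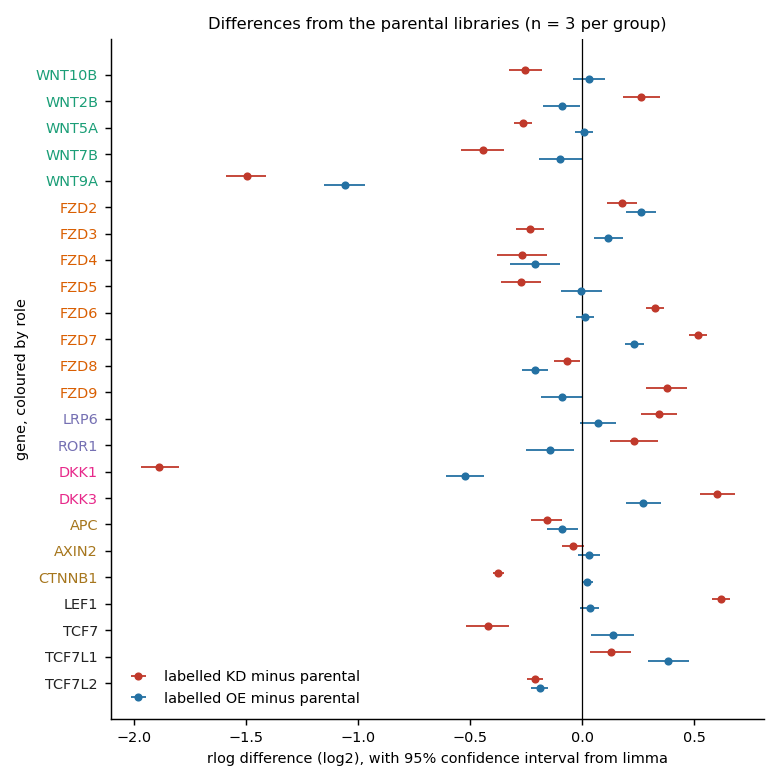
rlog differences from parental of the members described library by library, for the libraries labelled KD (red) and OE (blue), with 95% confidence intervals from limma (n = 3 per group). DKK1 and WNT9A have the largest decreases. Among the genes whose KD and OE points lie on opposite sides of 0, FZD3, ROR1 and TCF7 were called in both groups.

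Of the co-receptors and other receptors, LRP6, ROR1 and RYK were called for KD, each of them higher than parental. That was 3 of 5 genes, against 53.7% of all genes, and 2 of 5 were called for OE, against 34.8%. LRP6, the main co-receptor of the beta-catenin branch, had rlog values of 8.12, 8.23 and 8.24 in the parental libraries, 8.53, 8.58 and 8.51 in those labelled KD and 8.34, 8.21 and 8.25 in those labelled OE. It was higher in all 3 libraries labelled KD than in any other, by 0.34 against parental (SE 0.040, adjusted p = 7.1e-09 from limma). ROR1 (ENSG00000185483, chr1:63774017-64181498), a receptor tyrosine kinase for WNT5A, had rlog values of 7.69, 7.51 and 7.65 in the parental libraries, 7.96, 7.88 and 7.71 in those labelled KD and 7.54, 7.44 and 7.44 in those labelled OE. KD replicate 3 lay only just above the highest parental library, and the OE-labelled and parental ranges overlapped. The difference was 0.23 in the libraries labelled KD (adjusted p = 3.4e-04 from limma) and -0.14 in those labelled OE (adjusted p = 0.0292 from limma). The latter call was lost without a variance trend (0.129) and without PAR replicate 1 (0.173), PAR replicate 3 (0.11), OE replicate 2 (0.11) or OE replicate 3 (0.0925). RYK, a pseudokinase receptor, had a difference of 0.18 for KD, LRP5 was called for OE alone with 0.12, and ROR2, at a mean rlog of 2.36, was called in neither.

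Among the secreted antagonists SFRP1, the most abundant, was called in neither comparison with parental, while DKK1 fell in both. DKK1 (ENSG00000107984, chr10:52314281-52318042), an inhibitor of the co-receptors, had rlog values of 8.62, 8.51 and 8.51 in the parental libraries, 6.69, 6.66 and 6.63 in those labelled KD and 8.08, 8.0 and 7.99 in those labelled OE. The 3 groups did not overlap, the libraries labelled KD being lowest. The group means were 8.55 ± 0.062 (SD, n = 3), 6.66 ± 0.031 (SD, n = 3) and 8.02 ± 0.046 (SD, n = 3) for parental, KD and OE. DKK1 fell by 1.89 in the libraries labelled KD (SE 0.041, adjusted p = 4.0e-27 from limma), the largest difference of any member, and by 0.52 in those labelled OE (SE 0.041, adjusted p = 4.8e-12 from limma). On the rlog scale these are 0.271 and 0.696 of the parental level. Its neighbours within 10 Mb had a median difference of -0.016 in the libraries labelled KD.

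DKK3, a divergent Dickkopf protein for which no block of LRP6 is established, moved the other way. It had rlog values of 7.56, 7.62 and 7.57 in the parental libraries, 8.16, 8.19 and 8.21 in those labelled KD and 7.85, 7.88 and 7.84 in those labelled OE, again without overlap between groups. It rose by 0.60 in the libraries labelled KD (adjusted p = 3.9e-15 from limma) and by 0.27 in those labelled OE (adjusted p = 5.4e-07 from limma). Other genes, mainly USP47, overlap 47.5% of its exon length, and reads of both cannot be told apart. SFRP1 differed from parental by 0.025 (95% confidence interval 0.0017 to 0.048) in the libraries labelled KD and by -0.014 (-0.037 to 0.0088) in those labelled OE, and neither was called. The medians of its neighbours, -0.026 and 0.051, had the opposite signs, so that both differences are larger in size with them subtracted. Each had an SE of 0.011, and the calls of SFRP1 after subtraction were not followed. SFRP2, SFRP4, SFRP5 and DKK2 had mean rlog values under 3, where SFRP5 was called lower in the libraries labelled KD (-0.061) and DKK2 in those labelled OE (-0.13).

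**Figure D4:**
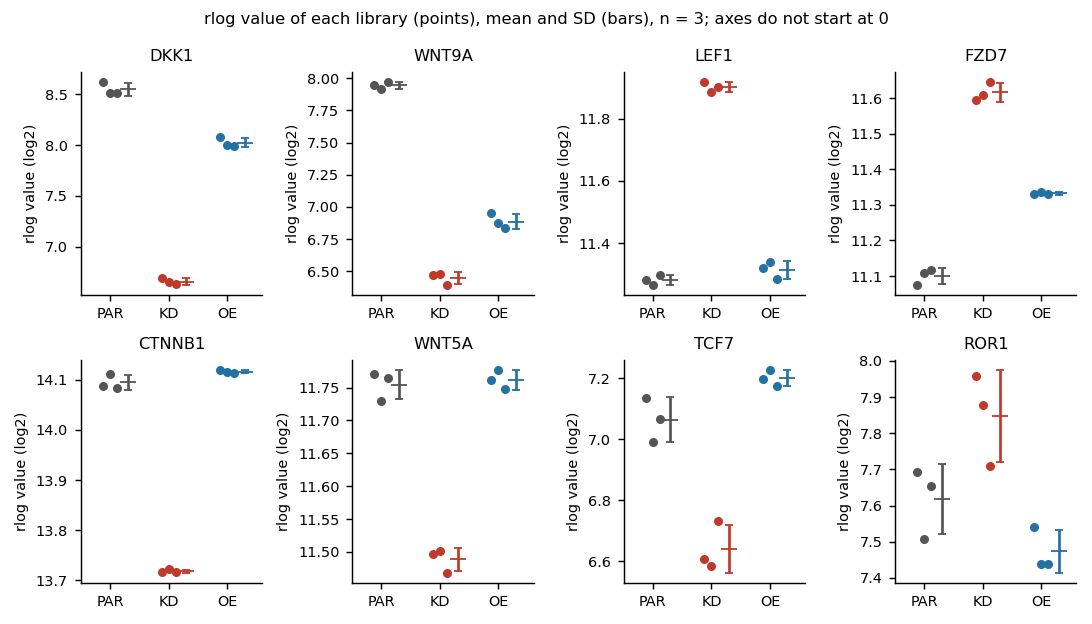
rlog value (log2, axes not starting at 0) of each of the 9 libraries for 8 genes, with mean and SD beside the points (n = 3 per group). The groups are apart in DKK1, WNT9A, FZD7 and TCF7, and in LEF1 and WNT5A only the libraries labelled KD are apart. In CTNNB1 those labelled KD are far below and those labelled OE just above the parental ones, while the OE-labelled and parental points overlap in ROR1.

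The R-spondin receptors LGR4 to LGR6 and the ligase ZNRF3, which removes Frizzled receptors from the membrane, had small differences. LGR4, LGR6 and ZNRF3 were called lower in the libraries labelled KD, by 0.14, 0.030 and 0.095, the ZNRF3 values overlapping with the parental range. These were 3 of 4 genes, against 53.7% of all genes. No gene of this role was called in the libraries labelled OE at an adjusted p under 0.05 from limma, against 34.8% of all genes. At a mean rlog under 5, 23.4% of all genes were called for KD and 8.75% for OE. LGR5, a stem cell marker, and LGR6 had mean rlog values of 3.28 and 0.43.

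Beta-catenin RNA was lower in the libraries labelled KD. CTNNB1 (ENSG00000168036, chr3:41194741-41260096) had rlog values of 14.09, 14.11 and 14.08 in the parental libraries, 13.72, 13.72 and 13.72 in those labelled KD and 14.12, 14.11 and 14.11 in those labelled OE. The libraries labelled KD lay below all others and those labelled OE just above the parental range, with group means of 14.09 ± 0.015 (SD, n = 3) for parental and 13.72 ± 0.0030 (SD, n = 3) for KD. CTNNB1 fell by 0.38 (SE 0.012, adjusted p = 9.1e-23 from limma) and differed by 0.021 in the libraries labelled OE (adjusted p = 0.183 from limma). Like WNT5A it lies on chromosome 3, and its 121 neighbours within 10 Mb had a median difference of -0.27 in the libraries labelled KD. With that median subtracted the difference was -0.10 and still called (adjusted p = 8.6e-09 from limma). ROR2, on chromosome 9, also has neighbours that were lower there, with a median of -0.37. With the median subtracted ROR2 differed by 0.34 for KD (adjusted p = 3.3e-13 from limma) instead of -0.026, and by 0.10 for OE (adjusted p = 0.00163 from limma) instead of 0.035. At its low level rlog differences are shrunken more than those of the neighbours.

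APC, the scaffold of the destruction complex, had rlog values of 9.15, 9.12 and 9.18 in the parental libraries, 9.04, 9.01 and 8.93 in those labelled KD and 9.05, 9.04 and 9.10 in those labelled OE. Both engineered groups were below all parental libraries, by 0.16 for KD (adjusted p = 1.3e-04 from limma) and 0.089 for OE (adjusted p = 0.0369 from limma). With the neighbours' median subtracted the KD difference was -0.25. The OE call was lost without PAR replicate 1 (0.0759), PAR replicate 3 (0.141), OE replicate 1 (0.106) or OE replicate 2 (0.122). AXIN2 had rlog values of 2.07, 2.10 and 2.13 in the parental libraries, 2.07, 2.06 and 2.05 in those labelled KD and 2.11, 2.12 and 2.16 in those labelled OE, a low level, and was not called against parental (adjusted p = 0.137 for KD and 0.351 for OE from limma). AXIN1, the constitutive scaffold, was not called either.

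**Figure D5:**
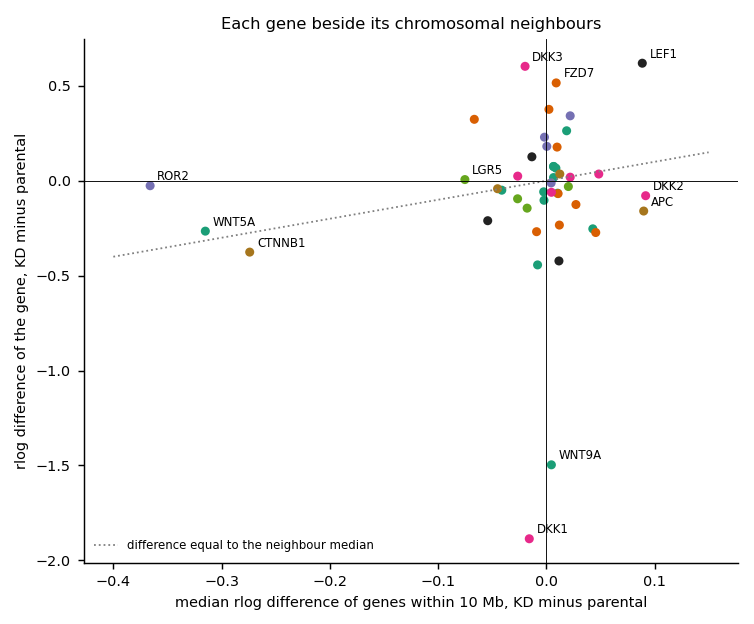
rlog difference of each gene in the libraries labelled KD against parental (vertical axis) beside the median difference of its neighbours within 10 Mb (horizontal axis), coloured by role. WNT5A lies near the dotted line where the gene equals its neighbours, CTNNB1 somewhat below it, and DKK1 and WNT9A are far below neighbours whose medians are -0.016 and 0.0047.

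The 4 TCF/LEF factors differed in direction. LEF1 (ENSG00000138795, chr4:108047545-108168956), a transcriptional partner of beta-catenin, had rlog values of 11.28, 11.27 and 11.30 in the parental libraries, 11.92, 11.89 and 11.90 in those labelled KD and 11.32, 11.34 and 11.28 in those labelled OE. The libraries labelled KD were above all others, and those labelled OE overlapped the parental range. LEF1 rose by 0.62 (SE 0.020, adjusted p = 1.5e-22 from limma), the largest increase of any member, and differed by 0.033 in the libraries labelled OE (adjusted p = 0.231 from limma). With the neighbours' median subtracted LEF1 rose by 0.53 for KD, less than DKK3 with 0.62. TCF7 (ENSG00000081059, chr5:134114681-134151865), a factor known from T cells, had rlog values of 7.14, 6.99 and 7.07 in the parental libraries, 6.61, 6.59 and 6.73 in those labelled KD and 7.20, 7.23 and 7.17 in those labelled OE. The libraries labelled KD were below and those labelled OE above all parental libraries. Its differences were -0.42 (adjusted p = 3.2e-09 from limma) and 0.14 (adjusted p = 0.0243 from limma). The OE call was lost without PAR replicate 2 (0.157), PAR replicate 3 (0.0527), OE replicate 1 (0.0508) or OE replicate 2 (0.0887).

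TCF7L1, which mostly represses target genes, had rlog values of 6.99, 7.11 and 6.99 in the parental libraries, 7.16, 7.17 and 7.14 in those labelled KD and 7.38, 7.49 and 7.37 in those labelled OE. It was highest in the libraries labelled OE, with a difference of 0.38 from parental (adjusted p = 2.2e-08 from limma), beside 0.13 in those labelled KD (adjusted p = 0.0177 from limma), a call lost without PAR replicate 1 (0.0833) or PAR replicate 3 (0.0769). TCF7L2 had rlog values of 12.04, 12.02 and 11.99 in the parental libraries, 11.79, 11.81 and 11.82 in those labelled KD and 11.83, 11.83 and 11.82 in those labelled OE. Both engineered groups lay below the parental one, by 0.21 for KD (adjusted p = 1.5e-11 from limma) and 0.19 for OE (adjusted p = 4.9e-10 from limma), and overlapped each other.

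Other genes of the pathway were taken from lists by function and are given as counts and medians. Of all genes 53.7% were called for KD and 34.8% for OE, and 71.7% and 50.3% of those with a mean rlog of at least 5. Of the genes for ligand secretion, PORCN, which attaches the lipid, fell by 0.37 in the libraries labelled KD (adjusted p = 2.2e-13 from limma) and by 0.29 in those labelled OE (adjusted p = 2.0e-10 from limma). WLS, which carries the ligands to the surface, rose by 0.37 (adjusted p = 8.7e-11 from limma) and 0.12 (adjusted p = 0.00642 from limma). Of 20 other extracellular modulators 11 had values, with 4 higher and 3 lower for KD (median -0.0056) and 3 higher and 1 lower for OE (median 0.017), shares near those of all genes. KREMEN1, a receptor for DKK1, had rlog values of 8.14, 8.07 and 8.04 in the parental libraries, 8.79, 8.84 and 8.82 in those labelled KD and 8.55, 8.59 and 8.58 in those labelled OE. It was above parental in every library of both groups, by 0.73 and 0.49. GPC4, a cell surface glypican, fell by 0.35 and 0.43, and RECK, which aids WNT7 signals, had differences of -0.36 for KD and 0.16 for OE (0.27 with the neighbours' median subtracted), all called at an adjusted p under 0.05 from limma.

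In the cytoplasm, 22 of 24 relay genes had values, with 7 higher and 6 lower for KD (median 0.0081) and 6 higher and 5 lower for OE (median 0.037), beside medians of -5.1e-04 and 3.9e-04 over all genes. All 22 had a mean rlog of at least 5, where 71.7% of all genes were called for KD and 50.3% for OE. CXXC4, an inhibitor of Dishevelled, had rlog values of 6.72, 6.72 and 6.84 in the parental libraries, 7.69, 7.66 and 7.60 in those labelled KD and 7.11, 7.26 and 7.05 in those labelled OE, above parental in both groups by 0.89 and 0.38. The feedback inhibitors NKD1 and NKD2 had differences of -0.24 and -0.53 in the libraries labelled KD and of 0.45 and 0.12 in those labelled OE, of which only the last was not called (adjusted p = 0.0613 from limma). It was called without a variance trend (0.0433), among genes with a mean rlog of 5 or more (0.0484), without OE replicate 2 (0.0236) and, at 0.18, with the neighbours' median subtracted (0.00252). Without OE replicate 3 it was 0.068. In the nucleus all 16 cofactors had values, with 10 higher and 4 lower for KD (median 0.093) and 4 higher and 6 lower for OE (median -0.024), or 87.5% called for KD and 62.5% for OE against the same 71.7% and 50.3%. With the neighbours' median subtracted 12 were called higher and 4 lower for KD, where 6875 of 22181 genes were called higher and 6583 lower. HBP1, a repressor of target genes, rose by 0.47 and 0.29, BCL9, which binds beta-catenin, by 0.35 and 0.25, and CTNNBIP1, an inhibitor of the beta-catenin to TCF contact, by 0.42 in the libraries labelled KD, all called by limma.

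All 13 planar polarity genes had values, with 3 higher and 7 lower for KD (median -0.14) and 6 higher and 3 lower for OE (median 0.060), or 76.9% called for KD and 69.2% for OE against 71.7% and 50.3% of all genes at a mean rlog of at least 5. VANGL2, a core component, had rlog values of 5.24, 5.40 and 5.18 in the parental libraries, 5.09, 4.99 and 5.13 in those labelled KD and 6.09, 6.03 and 6.12 in those labelled OE. It was higher in all 3 libraries labelled OE, with a difference of 0.81 (adjusted p = 5.8e-14 from limma), and lower in those labelled KD (-0.20, adjusted p = 0.00182 from limma). PRICKLE2 rose by 0.36 and 0.22, and INVS had a difference of -0.41 in the libraries labelled KD, where the medians of their neighbours were -0.27 and -0.36. With these subtracted PRICKLE2 differed by 0.63 for KD, and INVS by -0.051, which was not called (adjusted p = 0.11 from limma). Of the 13 genes, 4 were then called higher and 5 lower for KD. Over the whole table this subtraction gave 13458 KD calls among 22181 genes, with 6875 increases and 6583 decreases. Of 27 listed beta-catenin target genes 19 had values, 6 of them members, with 6 higher and 10 lower for KD (median -0.095) and 5 higher and 6 lower for OE (median -0.0063). At a mean rlog of at least 5, 16 of 16 were called for KD and 11 of 16 for OE, against 71.7% and 50.3% of all genes. The members DKK1 and LEF1 were among the genes of this list with the largest differences. The listed targets thus moved in both directions in each group.

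The contrast between the libraries labelled OE and KD tests whether the effects of both groups differ. It called 31 of 46 members, 18 of them higher in the libraries labelled OE and 13 lower, against 47.3% of all genes, 23.5% higher and 23.8% lower. At a mean rlog of at least 5 it called 27 of 32, against 64.1% of all genes, and 32 of 46 members did not overlap between the 2 groups, against 54.1% of all genes. The largest differences were those of DKK1 (1.36, adjusted p = 3.2e-23 from limma), LEF1 (-0.59, 1.0e-21) and TCF7 (0.56, 9.3e-12). CTNNB1 differed by 0.40, and by 0.095 with the neighbours' median subtracted. AXIN2, called in neither comparison with parental, was called here (0.072, adjusted p = 0.0107 from limma), and was not without OE replicate 3 (0.0725). Of the genes lowered in both groups, FZD4 and TCF7L2 did not differ detectably between them, with 95% confidence intervals of -0.053 to 0.17 and -0.018 to 0.058. APC, whose groups did not overlap, differed by 0.071 and missed the threshold (adjusted p = 0.0824 from limma), but was called without KD replicate 1 (0.041) and with the neighbours' median subtracted (0.0233).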

How the data were processed

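The authors isolated total RNA, made libraries with an unstranded TruSeq v2 kit, trimmed the reads (cutadapt), aligned them to GRCh38 (HISAT2), assigned them to genes (featureCounts), removed genes with few reads and deposited regularized log2 values (rlog, DESeq2), per the paper and the submitters' processing notes. Tool versions are not given in the sources used here. The 3 columns without values were not used. Symbols, exons and overlaps came from GENCODE release 44, which matched 22195 of 22290 identifiers. Members and gene lists were chosen with earlier results of these data known.

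Group means of all 9 libraries were compared with limma 3.58.1 in R 4.3.3 (linear model, variance trend), tested on simulated data, with adjustment over 22290 genes. Named genes were all members by role, with each library's value for members called against parental with a difference of at least 0.2 and for CTNNB1, APC, AXIN2, LRP6 and TRAP1, and the 3 called genes of each pathway list with the largest difference. Marker lists covered adrenergic and mesenchymal neuroblastoma cells and, for other cell types, Schwann cells, fibroblasts, epithelium, blood and endothelium. Alternatives were no variance trend, a minimum mean rlog of 5, median-centred libraries, only the 2 groups compared, a replicate block, each library left out, an adjusted p under 0.01, and subtraction of the median difference of neighbours within 10 Mb. In the last, the median was treated as a fixed value. The p-value was recomputed with the SE of limma, without the spread of the median. Named coordinates are 1-based on GRCh38.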

Additional observations from a re-analysis of the deposited data

Results flagged for a closer look

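In 3 of 46 members (6.52%), against 4.24% of all genes, the libraries labelled KD and OE were called in opposite directions against the shared parental libraries. Since the members were picked for opposite calls, a difference between OE and KD follows from the choice, and its size is given as a description. It was 0.56 for TCF7, 0.35 for FZD3 and -0.37 for ROR1. In TCF7 and FZD3 all 3 libraries labelled OE lay above and all 3 labelled KD below every parental library, and in ROR1 the OE-labelled and parental ranges overlapped. The OE call of FZD3 was lost with the neighbours' median subtracted, that of ROR1 without a variance trend and without any 1 of 4 libraries, and that of TCF7 without any 1 of 4 libraries.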

How the results depend on the processing

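The counts of called members and of called genes stayed within 1.5 times their reported values under every alternative. With 1 library left out, 28 to 32 members were called for KD, 13 to 18 for OE and 26 to 30 for OE against KD. Of the 22290 genes, 11106 to 12030, 6857 to 7762 and 9636 to 10575 were then called. At an adjusted p under 0.01 the counts of members were 25, 13 and 24, where 10112, 5953 and 8676 of 22290 genes were called. With the neighbours' median subtracted they were 35, 20 and 32, where 13458, 8838 and 12062 of 22181 genes were called. Of 75 differences (24 members and TRAP1 in 3 contrasts), 55 kept their direction and their side of the threshold under each of the 16 alternatives that gave them a value. AXIN2 gave none at a mean rlog of at least 5. The sign turned with the neighbours' median subtracted for WNT5A (0.050 for KD and -0.045 for OE against KD), AXIN2 for KD (0.0032), FZD6 (-0.016) and LEF1 (-0.017) for OE, and TCF7L2 for OE against KD (-0.0058), and of these only the differences of WNT5A had been called. For OE against parental it turned without PAR replicate 2 for WNT5A (-0.0054) and FZD5 (0.016), without OE replicate 2 for WNT5A (-0.0002), and without OE replicate 3 for FZD5 (0.034) and TRAP1 (-0.012), none of them called. Leave-one-out ranges of these were -0.0054 to 0.015 for WNT5A, -0.035 to 0.034 for FZD5 and -0.012 to 0.042 for TRAP1. The cause was not tested. FZD2 was called in OE against KD (adjusted p = 0.035 from limma) but not without KD replicate 1 (0.183), KD replicate 3 (0.135) or OE replicates 1 (0.0717), 2 (0.0752) and 3 (0.0595). With a replicate block, 32, 17 and 30 members and 12015, 7854 and 10623 genes were called for KD, OE and OE against KD, and the call of each of the 75 differences was kept. Whether same-numbered libraries share more than a number cannot be told from these values. Their deviations correlated between -0.071 and 0.14, and not every library correlated best with its own number. Between OE and KD the same-numbered values were 0.116, 0.0231 and 0.14, and those with different numbers ran from -0.139 to 0.026. Against parental the same-numbered values ran from -0.071 to 0.0127. For the pathway genes and ROR2, the alternatives were chosen after the data were seen. Among ROR2 and the pathway genes named here, the OE difference turned with the neighbours' median subtracted for CTNNBIP1 (0.044) and INVS (0.040), neither called. The KD difference turned for ROR2 (0.34), then called. Other genes of the lists were not followed singly. Of these, TLE1, TLE4, CELSR3 and EPHB3 were called for KD with differences smaller in size than their neighbours' medians, which had the same sign. The authors state a nominal depth, but that of each library cannot be read from these values, rlog values shrink low genes, 3 libraries a group limit the precision, and genes with shared exons cannot be separated without strand.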

Other observations

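Some genes on the list of beta-catenin targets, chosen here after their values were seen, moved alike against parental in both groups. CCND1, a cyclin of the G1 phase, had differences of -0.14 for KD and -0.36 for OE, and MYC, a growth regulator, of -0.41 and -0.14. With the median of its neighbours (-0.25) subtracted, the KD difference of MYC was -0.17. EPHB2, an ephrin receptor, had -0.44 and -0.44. TNFRSF19 was higher by 0.58 and 0.39, and BMP4, a secreted growth factor, by 0.15 and 0.47. All were called by limma at an adjusted p under 0.05.

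Markers of other cell types were summed after taking them back from the log2 scale. The 2 of 4 Schwann cell markers with values summed to 3963, 3981 and 3891 in the parental, 3742, 3741 and 3726 in the KD-labelled and 4848, 4801 and 4955 in the OE-labelled libraries, with S100B as the most abundant. The 3 endothelial markers, led by PECAM1, summed to 974, 998 and 977 in the parental, 1089, 1088 and 1062 in the KD-labelled and 698, 733 and 769 in the OE-labelled libraries. The genes opposed each other for KD, where PECAM1 differed by 0.47 and KDR by -1.32. For the 4 of 6 epithelial markers with values, led by KRT18, the sums were 4743, 4704 and 4676 for parental, 4865, 4964 and 5008 for KD and 4575, 4531 and 4587 for OE, where KRT18 differed by -0.097 and KRT8 by 0.40. Fibroblast markers, 5 of 6 with values and led by PDGFRB, gave 405, 415 and 431 for parental, 407, 460 and 416 for KD and 440, 457 and 450 for OE. The 2 of 4 blood markers with values, led by CD14, summed to between 20 and 23 in every library.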
